A study of Mus musculus with 17 samples.

Results

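The bone morphogenetic protein (BMP) genes described here are 4 ligands (Bmp2, Bmp4, Bmp5 and Bmp6), 2 type I receptors (Bmpr1a and Bmpr1b) and 4 extracellular antagonists (Grem1, Nog, Chrd and Bmper). They were taken as the probe sets annotated to a single one of these symbols, which gave 19 probe sets for 10 genes among 18193 genes with such a probe set, and all 10 passed the filter on low signals that left 14504 genes for testing. Mouse skeletal stem cells (mSSC) and their progeny, the bone cartilage stroma progenitors (mBCSP), were sorted from fracture callus and uninjured bone of C57BL/6 female mice and hybridized to 17 Affymetrix whole-genome arrays. The arrays held OVX + E2 callus (ovariectomy, an estradiol pellet and fracture, n = 2), OVX callus (ovariectomy and fracture, n = 2), sham callus (sham surgery and fracture, n = 4), OVX uninjured bone (n = 2) and sham uninjured bone (n = 3). A further 2 callus arrays carried conflicting labels (OVX in the title, sham in the treatment) and are called conflicting callus, and 2 callus arrays gave fracture with no ovary surgery and are called unstated callus. By the methods of the study ovariectomy was done at 8 weeks of age, with a pellet of 0.18 mg 17β-estradiol where given, fracture followed at 14 weeks and callus was taken 7 days later. Each group held mSSC and mBCSP arrays in equal number, except sham uninjured bone with 2 mSSC arrays and 1 mBCSP array. The labels do not say that arrays came from separate mice.

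The short codes in the titles come in 3 forms, and the forms do not hold the same groups. Form A (6 arrays) held OVX + E2, OVX and sham callus, form B (4 arrays) unstated callus and sham uninjured bone, and form C (7 arrays) conflicting and sham callus and OVX and sham uninjured bone. Nothing in the labels says that the forms were processed apart, but values differed between them. Each test of injury, ovary surgery or estradiol was made within a form, while ranges and overlaps are given over all arrays. The exception is the test of whether the response to injury differed between mSSCs and mBCSPs, which used population differences from all forms. Ovary surgery in callus could therefore be compared in form A only, and callus with uninjured bone in forms B and C only.

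BMPs are secreted ligands of the TGF-β superfamily that bind a complex of type I and type II receptors and signal through SMAD1, SMAD5 and SMAD9 to target genes such as the Id genes. Their range is set outside the cell by antagonists that bind the ligand. In bone they induce cartilage and osteoblast formation, and Bmp2 is required for the start of fracture repair in mice.

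Promoter sequences are shown for the genes that were called higher in callus and that have a window in the RefSeq table, since these windows precede the transcripts the arrays measured. Each window held 300 bases, 250 before and 50 after the start of the gene in GRCm38.p6, and 8 of the 10 genes had one. Capitals mark matches on either strand to TATAAA (the TATA box), GGGCGG (a GC box), GGCGCC (bound by BMP SMADs) and GGTCA (a single arm of the estrogen response element). The windows are chr9:75775115-75775414 on the plus strand for Bmp5, chr13:38345466-38345765 on the plus strand for Bmp6 and chr9:23222826-23223125 on the plus strand for Bmper.
Bmp5: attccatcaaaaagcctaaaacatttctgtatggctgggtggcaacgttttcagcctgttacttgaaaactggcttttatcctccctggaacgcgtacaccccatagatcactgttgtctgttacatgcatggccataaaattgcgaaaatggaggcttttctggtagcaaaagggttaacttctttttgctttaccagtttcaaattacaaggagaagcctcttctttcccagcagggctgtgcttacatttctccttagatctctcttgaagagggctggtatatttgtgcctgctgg
Bmp6: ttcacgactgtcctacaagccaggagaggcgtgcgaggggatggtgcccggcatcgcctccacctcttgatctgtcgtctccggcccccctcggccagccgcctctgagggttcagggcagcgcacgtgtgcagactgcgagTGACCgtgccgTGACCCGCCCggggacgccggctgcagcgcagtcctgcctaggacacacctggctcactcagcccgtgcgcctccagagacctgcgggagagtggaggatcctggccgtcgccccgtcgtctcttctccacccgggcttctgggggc
Bmper: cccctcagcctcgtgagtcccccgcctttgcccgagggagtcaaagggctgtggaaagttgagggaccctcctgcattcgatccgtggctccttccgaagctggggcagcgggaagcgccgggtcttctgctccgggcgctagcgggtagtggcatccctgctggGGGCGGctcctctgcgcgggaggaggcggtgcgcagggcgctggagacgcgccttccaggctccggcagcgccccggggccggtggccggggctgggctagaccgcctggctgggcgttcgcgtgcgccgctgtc
The Bmp5 window had 43.3% G and C and none of these letters, while the windows of Bmp6 (69.3%) and Bmper (72.7%) were richer in G and C than the median window (52.7%). Bmp6 held GGTCA 2 times, the second overlapping its GC box by 1 base, and Bmper held 1 GC box. Of all 32851 windows, 40.5% held GGTCA, 35.7% GGGCGG, 13.6% TATAAA and 11.9% GGCGCC, so the matches in Bmp6 and Bmper were to common letters.

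The values are log2 signals after quantile normalization, raised to a floor of 5.95, below which signals are not ordered. Deposited array medians lay between 7.66 and 7.88, and Spearman correlations between arrays between 0.591 and 0.977. The mBCSP array of unstated callus (code BI) correlated at no more than 0.841 with any other array, and the results on injury that it moved most are given with and without it. Eng, which encodes the CD105 protein that the sort used to tell mBCSPs from mSSCs, was higher in the mBCSP array of all 8 pairs. Ptprc, which encodes CD45 and was gated out, read 6.58 to 13.53 on callus arrays and 13.79 to 14.74 on uninjured arrays. Other genes of the markers gated out overlapped between callus and uninjured arrays. Tek read 5.97 to 11.70 in callus and 6.06 to 10.48 in uninjured bone. Thy1 read 6.22 to 7.60 and 5.95 to 7.26, and Enpep 5.98 to 8.82 and 5.95 to 8.13. Fewer cells of a type and less RNA per cell cannot be told apart in such data.

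In callus 5 of the 10 genes passed the test against uninjured bone and all 5 were higher: the ligands Bmp2, Bmp5 and Bmp6 and the antagonists Nog and Bmper. Nog and Bmper met the filter on low signals through callus arrays only, and neither was called with no filter. Bmp5 had a log2 fold change of 3.79 (SE 0.29, 95% interval 3.16 to 4.43), a 13.9-fold difference. Of all genes tested, 36.6% were called and 19.6% were called higher, so a called gene was common in this comparison. Without array BI, in a fit added after the values were seen, 7 of the 10 genes were called (also Bmp4 and Bmpr1b) and 48.4% of all genes. The median log2 fold change was 1.54 over the 10 genes and 0.10 over all genes tested. The log2 fold change is the mean of the form B difference (unstated callus minus sham uninjured bone) and the form C difference (sham callus minus sham uninjured bone), from a limma fit on all 17 arrays with Benjamini-Hochberg adjustment over 14504 genes. The form C difference sets 2 sham callus arrays against 1 sham uninjured array, an mSSC array that is assumed to vary like the other groups, and this array carries the uninjured side of 1 of the 2 differences averaged. Its SE comes from how mSSC and mBCSP arrays of the same condition differ, as no condition has a second array of the same population within a form, and so it does not measure the spread between mice.

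**Figure D1:**
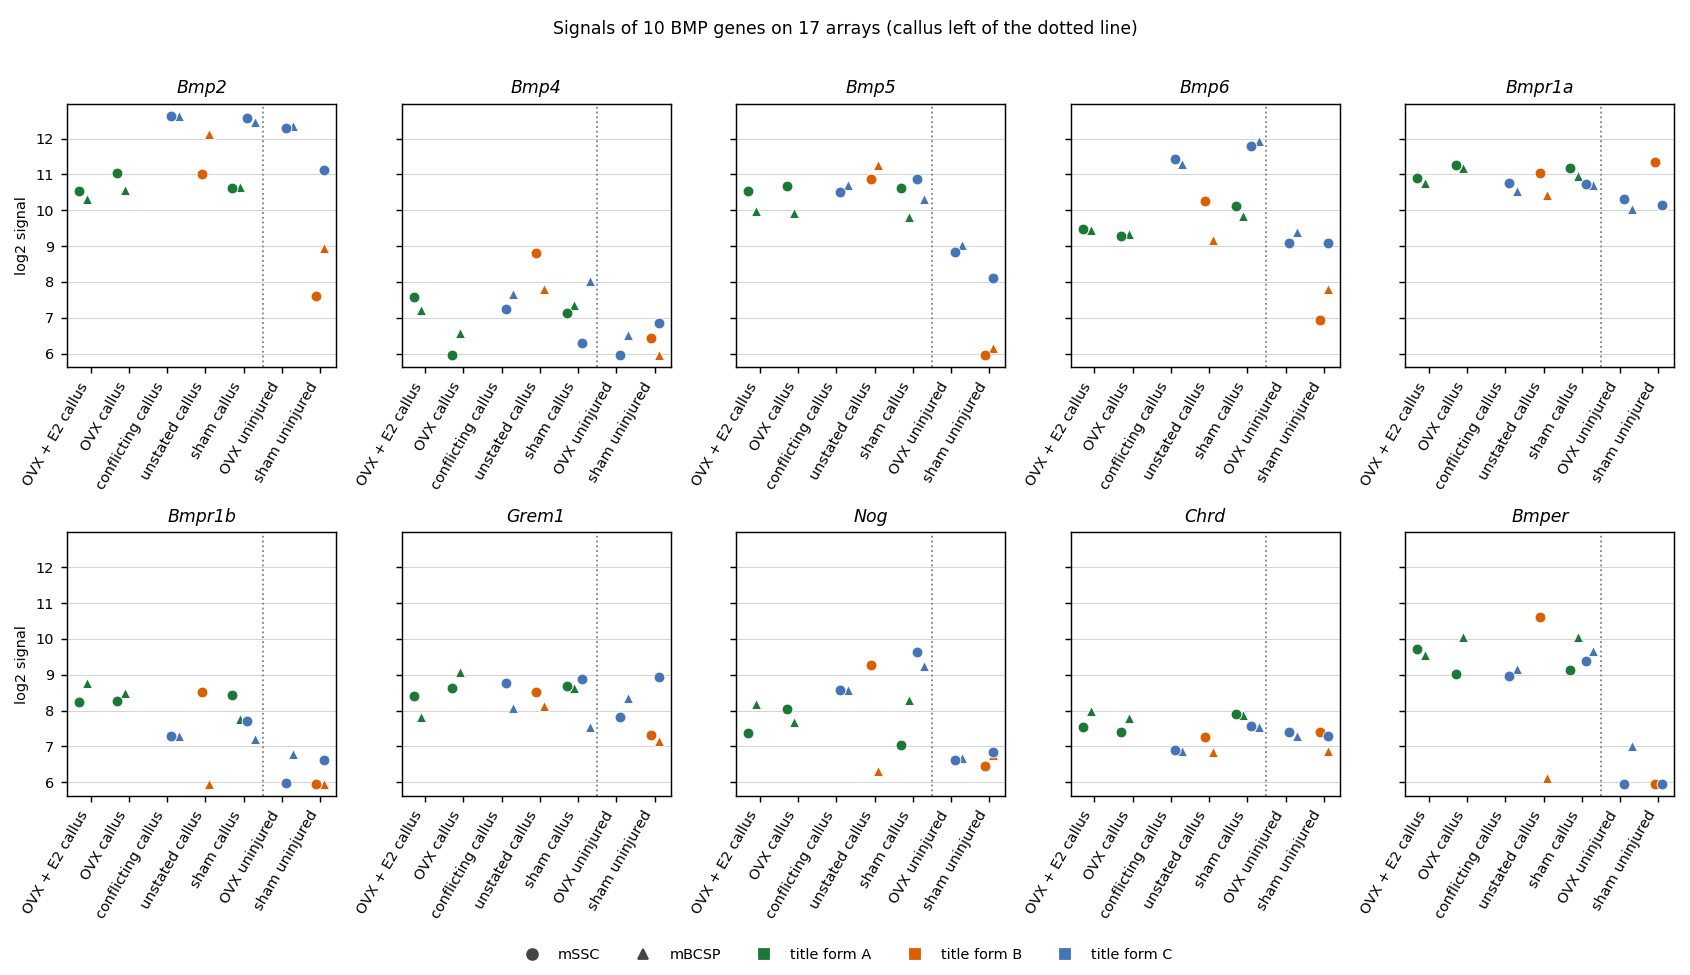
Log2 signal (vertical axis) of the 10 BMP genes on each of 17 arrays, by group, with callus groups left of the dotted line, mSSC arrays as circles, mBCSP arrays as triangles and colours for the 3 title forms. Bmp5 is the only one of the 10 with every callus array above every uninjured array (lowest callus 9.80, highest uninjured 9.04).

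Bmp5, the ligand mutated in short-ear mice (chr9:75775365-75900316, GRCm38.p6), ranged over 9.80 to 11.25 on 12 callus arrays, with a median of 10.58. On uninjured arrays it read 9.04 and 8.82 in OVX bone and 8.11, 6.14 and 5.95 in sham bone. The groups did not overlap, which held for 1 of the 10 genes and for 8.45% of all genes tested, and without array BI for 4 (also Bmpr1b, Nog and Bmper) and 12.4%. The other Bmp5 probe sets did overlap, each with 11 of 12 callus arrays above the highest uninjured array, 1421282_at with callus down to 8.31 and uninjured bone up to 8.79, and 1421283_at with 9.52 and 9.85. The adjusted p was 3.51e-06. The 3 uninjured arrays of form C stood above the 2 of form B, which were at or near the floor, and the difference was 5.01 in form B and 2.58 in form C.

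Bmp6, a ligand made by maturing chondrocytes and, in the liver, a regulator of iron (chr13:38345716-38500314), ranged over 9.16 to 11.92 in callus (median 9.98). It read 9.38 and 9.09 in OVX and 9.10, 7.81 and 6.93 in sham uninjured bone. Of the callus arrays 9 stood above the highest uninjured array, and the 3 below it were both OVX callus arrays and array BI. The log2 fold change was 2.56 (SE 0.31, adjusted p = 7.77e-05), with 2.34 in form B and 2.77 in form C. Without array BI these were 2.83 over both forms, 2.96 in form B and 2.69 in form C.

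Bmp2, an inducer of bone formation (chr2:133552159-133562896), ranged over 10.31 to 12.64 in callus (median 11.02) and read 12.35 and 12.30 in OVX and 11.13, 8.96 and 7.62 in sham uninjured bone. Callus and uninjured arrays overlapped widely across forms, since the OVX uninjured arrays of form C stood above every array of form A callus. Within forms the log2 fold change was 2.28 (SE 0.32, adjusted p = 2.54e-04). It was 3.28 in form B, and 1.28 in form C, where it did not pass the test (adjusted p = 0.0902).

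Bmp4, a ligand of early skeletal patterning (chr14:46383525-46390669), lay just beyond the threshold at 1.15 (SE 0.42, adjusted p = 0.0503). It was dim, with 5.95 to 8.81 in callus (median 7.30), 6.53 and 5.95 in OVX uninjured bone and 6.85, 6.45 and 5.95 in sham uninjured bone. The difference passed in form B (2.10, adjusted p = 0.0126) and stood at 0.20 in form C (adjusted p = 0.876). It passed without array BI (1.46, adjusted p = 0.0102), without the sham callus mSSC array of form C (1.64, adjusted p = 0.00853), without the sham uninjured mSSC array of form B (1.33, adjusted p = 0.043), with the floor at the 30th percentile (1.06, adjusted p = 0.0311) and with conflicting arrays counted as OVX (1.31, adjusted p = 0.0341).

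The receptors did not pass the test. Bmpr1a, which encodes the type I receptor ALK3 (chr14:34411061-34503336), ranged over 10.43 to 11.26 in callus and over 10.04 to 11.35 in uninjured bone, with a log2 fold change of 0.36 (95% interval -0.15 to 0.87). Without its highest uninjured array, the mSSC array of form B, the value was 0.57 and passed (adjusted p = 0.0327). Bmpr1b, which encodes ALK6 and is needed for cartilage condensations of the limb in mice (chr3:141837135-142169585), had 1.13 (SE 0.50, adjusted p = 0.104). On 11 of 12 callus arrays Bmpr1b read between 7.20 and 8.78, above the highest uninjured array (6.78), and array BI was at the floor. Without array BI the log2 fold change was 1.70, with its mSSC partner (code SI, 8.51) as the only form B callus array left. Without array SI it was 0.39. Bmpr1b passed without the form term (1.66, adjusted p = 0.0121) and with form as a random block (1.58, adjusted p = 0.0251).

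Among antagonists Bmper, a BMP-binding protein related to fly crossveinless 2 that can inhibit or promote signalling (chr9:23223076-23485215), was at the floor on 4 of 5 uninjured arrays and read 7.0 on the mBCSP array of OVX uninjured bone. In callus 11 of 12 arrays lay between 8.96 and 10.61, and array BI read 6.12. The log2 fold change was 3.02 (SE 0.84, adjusted p = 0.0152), against uninjured arrays at the floor. Without array BI it was 4.11 (adjusted p = 2.24e-06), and without array SI 1.63 (adjusted p = 0.0021).

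Nog, which encodes noggin, a secreted protein that holds ligands off their receptors (chr11:89300638-89302559), read 6.33 to 9.65 in callus (median 8.24) and 6.46 to 6.85 in uninjured bone. Again 11 of 12 callus arrays stood above all uninjured arrays and array BI (6.33) did not. The log2 fold change was 1.94 (SE 0.60, adjusted p = 0.0252). It was 2.63 without array BI and 1.04 without array SI, and it lost its call without the sham callus mSSC array of form C (1.86, adjusted p = 0.0754) or the sham uninjured mSSC array of form B (1.82, adjusted p = 0.0602). With no filter on low signals neither Nog (adjusted p = 0.0675) nor Bmper (adjusted p = 0.0504) passed. Every uninjured array read below the filter level of 7.20 for Nog and for Bmper, so callus arrays alone brought these genes into testing. The same held for Bmp4 and Bmpr1b.

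Grem1 and Chrd did not pass the test. Grem1, which encodes gremlin and marks stem cells of bone and stroma in mice (chr2:113748675-113758648), ranged over 7.55 to 9.09 in callus and 7.15 to 8.93 in uninjured bone, with 0.26 (95% interval -0.48 to 0.99). Its differences had opposite signs in the forms, 1.08 in form B and -0.56 in form C. Chrd, which encodes chordin (chr16:20731425-20742384), ranged over 6.86 to 7.99 in callus and 6.86 to 7.41 in uninjured bone, with 0.10 (95% interval -0.42 to 0.61).

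**Figure D2:**
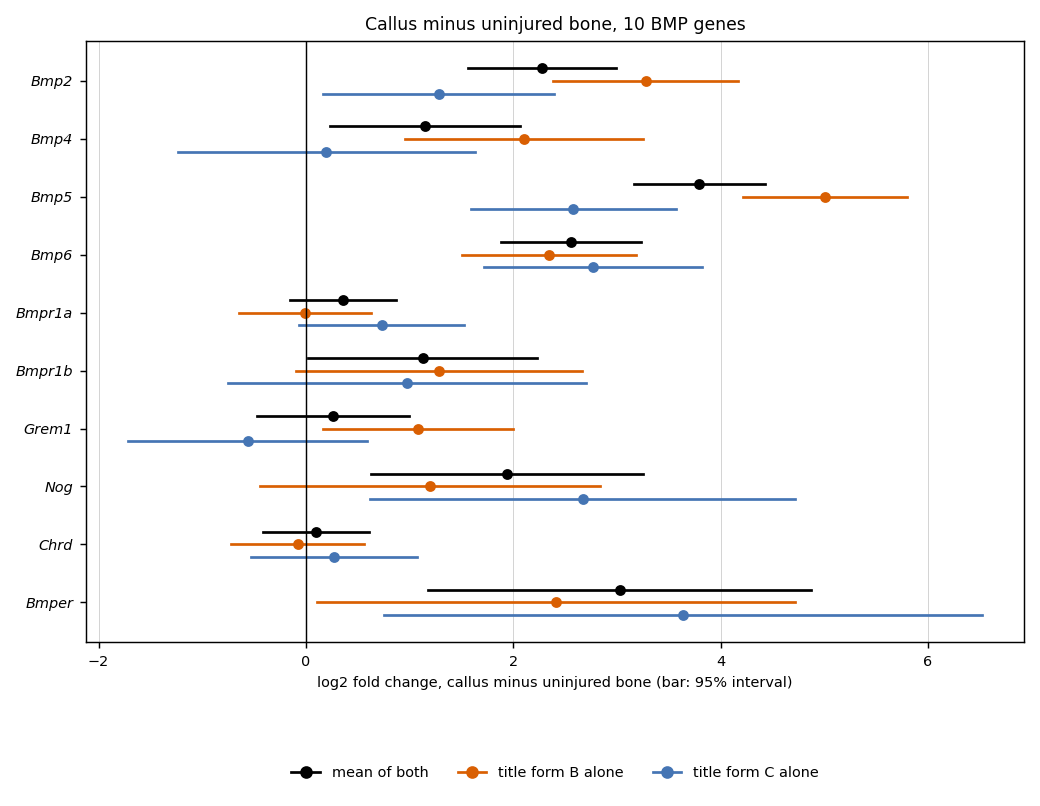
Log2 fold change of callus over uninjured bone (horizontal axis) for the 10 BMP genes, as the mean of both title forms (black), in form B alone and in form C alone, with 95% intervals as bars. The 3 estimates of Bmp5 are 3.79, 5.01 and 2.58, and those of Bmp6 2.56, 2.34 and 2.77.

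Within form B alone 4 of the 10 genes were called higher (Bmp2, Bmp4, Bmp5 and Bmp6), against 12.7% of all genes, and within form C alone, with its 1 uninjured array, 2 (Bmp5 and Bmp6), against 14.3%. Without array BI these were 7 genes, against 20.3%, and 5 genes, against 19.5%. Both antagonists that were called over the mean of the forms missed the threshold in each form with all arrays, Bmper with 2.41 in form B (adjusted p = 0.12) and 3.64 in form C (adjusted p = 0.066), and Nog with 1.20 (adjusted p = 0.274) and 2.67 (adjusted p = 0.0588). A test of the difference between the forms' responses, which was added after the values were seen, called 0 of the 10 genes and 0.883% of all genes. Bmp5 came closest, with a response larger by 2.43 in form B (95% interval 1.17 to 3.70, adjusted p = 0.0768), or by 2.04 without array BI (adjusted p = 0.104).

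Callus and uninjured arrays of the same population and form could be set side by side in 5 pairs, of which 2 set conflicting callus against OVX bone. Bmp2, Bmp5, Bmp6 and Bmper were higher in callus in 5 of 5 pairs, as were 18% of all genes tested. Bmp5 differences ran from 1.65 to 5.11 and Bmp6 differences from 1.35 to 3.34. Those of Bmper ran from 0.17, in the pair of array BI with an uninjured array at the floor, to 4.66. Bmp2 stood apart, with 3.40 and 3.16 in form B, 1.45 in the sham pair of form C and 0.31 and 0.29 in the pairs with OVX uninjured bone. Nog was higher in 4 of 5 pairs (1.91 to 2.83) and had -0.42 in the pair with array BI. Chrd was higher in 1 of 5.

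**Figure D3:**
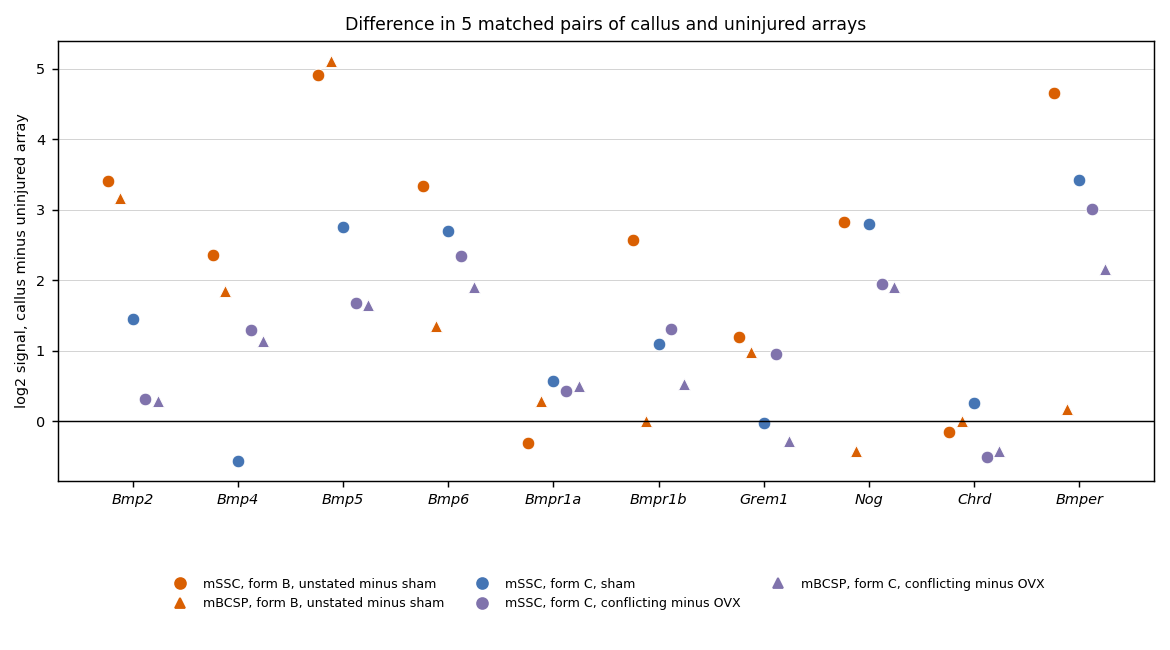
Difference in log2 signal between a callus array and the uninjured array of the same population and title form (vertical axis), for the 10 BMP genes in 5 pairs. All points of Bmp2, Bmp5, Bmp6 and Bmper lie above 0, and those of Bmp2 run from 0.29 to 3.40.

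Conflicting callus was also tested against OVX uninjured bone, a contrast that holds ovariectomy constant only if the title of the callus arrays is right. Bmp5 (1.66, adjusted p = 0.0134) and Bmp6 (2.12, adjusted p = 0.00545) were called higher, 2 of the 10 genes against 9.12% of all genes, while Bmp2 differed by 0.30 (adjusted p = 0.648). Against sham callus of form C, conflicting callus had 0 of the 10 called and 0.29% of all genes, and Chrd had the smallest p of the 10, with 6.86 and 6.90 in conflicting callus and 7.54 and 7.56 in sham callus (-0.67, adjusted p = 0.302). The response to injury on these OVX-titled arrays did not pass a test of difference from that on sham arrays for any of the 10 genes (0.0483% of all genes were called), a test also added after the values were seen. The widest of these differences, for Bmper, had an interval of -4.74 to 2.64.

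Forms themselves differed in the same condition. Sham callus of form C exceeded sham callus of form A in Bmp2 (12.46 and 12.58 in form C, 10.64 and 10.62 in form A; log2 fold change 1.89, adjusted p = 0.0325) and in Bmp6 (11.92 and 11.79 in form C, 9.83 and 10.12 in form A; 1.88, adjusted p = 0.0269). These 2 of 10 genes were called higher, against 1.19% of all genes. Nog had 1.77 (adjusted p = 0.286) and Bmp5 0.37 (adjusted p = 0.731). Of the other pathway genes Gdf5 (1.46), Gdf10 (2.37), Crim1 (1.68), Smad7 (1.72) and Pcsk6 (1.78) were higher in form C, and Fst (-1.26) and Nbl1 (-1.86) lower. What separates the forms was not tested.

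Genes with several probe sets gave a test of the choice of probe set. All 3 of Bmp5 were higher in callus, with 3.79, 3.18 and 2.60 (adjusted p over 27216 probe sets 4.25e-05 and 9.83e-04 for the last pair). Of 6 Bmpr1a probe sets 4 lay between -0.01 and 0.49 over both forms, and none of these passed. Each of these 4 was below 0 in form B and above 0 in form C. The widest apart was 1425494_s_at, with -1.43 in form B (called lower, adjusted p = 0.0356) and 1.42 in form C. The 2 of lowest signal, 1445413_at and 1451729_at, were lower in callus (-1.60, adjusted p = 0.00187, and -1.65, adjusted p = 0.00937). They read at most 6.80 and 7.72 in callus, and up to 9.06 and 8.74 in uninjured bone, where the mSSC array of form B (code SU) was the highest in each. Bmpr1b had 2 further probe sets with 0.45 (adjusted p = 0.108) and 0.53 (adjusted p = 0.114). For 1422872_at of Bmpr1b, which did not pass the test, all 12 callus arrays (6.96 to 8.27) stood above all 5 uninjured arrays (6.59 to 6.89). The nearest values, 6.96 and 6.89, lay under the filter level of 7.20. Such a separation held for 8.45% of all genes tested, and its share over all probe sets was not counted. On 1422872_at array SI exceeded array SU by 0.13. The probe set 1443720_s_at was at the floor on all uninjured arrays and on both unstated callus arrays.

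**Figure D4:**
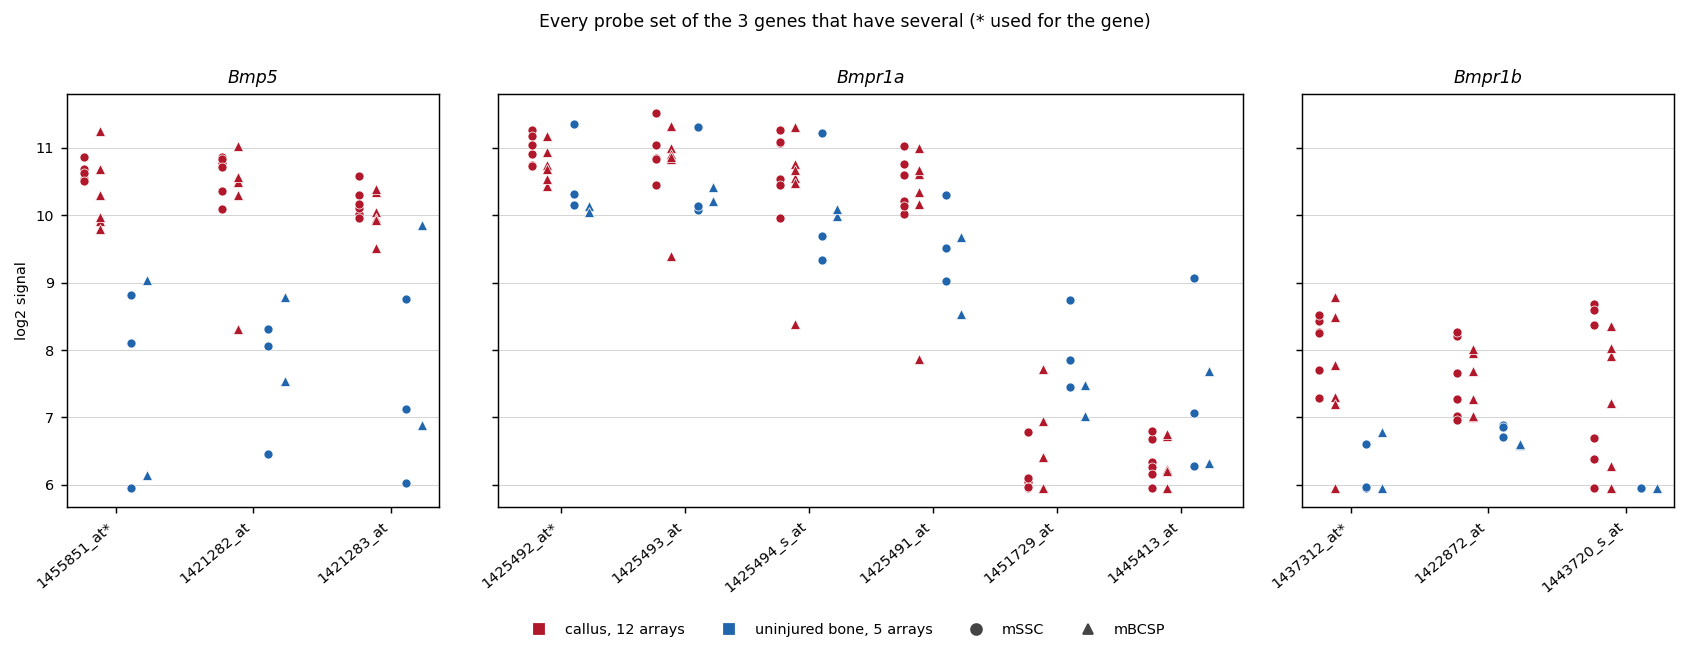
Log2 signal (vertical axis) of every probe set of Bmp5, Bmpr1a and Bmpr1b on 12 callus arrays (red, left) and 5 uninjured arrays (blue, right), with circles for mSSC and triangles for mBCSP. The 3 Bmp5 probe sets are higher in callus, while the Bmpr1a probe sets 1451729_at and 1445413_at reach 8.74 and 9.06 in uninjured bone.

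Around these 10 genes, 63 other genes of the pathway were listed, of which 55 were tested. In callus 34 were called higher and 1 lower, 63.6% of those tested, against the 36.6% called among all genes, a background that was higher without array BI. The lists were chosen with earlier results of these data known. Without array BI 38 were called higher and 1 lower. Of the other ligands 3 of 6 were called, all higher, including Gdf5 (3.76, adjusted p = 1.64e-06), a joint and cartilage ligand, Gdf10 (1.95) and Bmp8a (0.94). Gdf5 differed by 1.73 in form B and 5.80 in form C, and it was the 1 pathway gene whose forms differed by the test of that difference (-4.07, adjusted p = 0.0066). Of the other receptors and co-receptors 3 of 9 were higher, the type I receptor Acvr1 (3.27), the type II receptor Bmpr2 (1.36) and the co-receptor Rgmb (0.88), and Acvrl1, the endothelial type I receptor ALK1, was the gene called lower (-1.83, adjusted p = 2.17e-04). Of the other antagonists and modulators 10 of 14 were called, all higher, with a median of 1.62 over the list and 0.10 over all genes. Fstl1, a follistatin-like secreted protein (4.75), the chordin relatives Chrdl1 (4.38) and Chrdl2 (2.93), Smoc2 (3.14) and the decoy receptor Bambi (2.81) were followed by Smoc1 (2.09), Twsg1 (1.67), Crim1 (1.57), Fst (1.42) and Nbl1 (1.38).

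The counts that follow stand beside 19.6% of all genes called higher in callus. Downstream, 6 of 10 signal transducers and inhibitors were called higher, Smad1 (1.98), Smad9 (0.72), the inhibitory Smad6 (1.44) and Smad7 (1.40), Smurf2 (0.64) and Ski (1.04). Their median was 0.47 in form B and 1.24 in form C, with its 1 uninjured array. In form B alone 2 of the 10 were called higher (Smad1 and Ski), against 12.7% of all genes in that form. Of 12 target genes 8 were called higher, with Id3 at 2.87 (adjusted p = 5.37e-06), Id1 at 2.03 (adjusted p = 2.99e-04) and the osteoblast factor Sp7 at 3.88, followed by Dlx5 (1.86), Atoh8 (1.47), Dlx3 (1.17), Junb (0.98) and Id4 (0.62), while Msx2 lay at 0.57 (adjusted p = 0.0502). On the arrays Id3 ranged over 10.82 to 12.23 in callus and 8.40 to 9.88 in uninjured bone, with no overlap, as for 8.45% of all genes. The convertases Furin (0.82), Pcsk5 (4.29) and Pcsk6 (2.85), of a family that cleaves BMP precursors, and Bmp1 (1.92), a protease that cuts chordin, were all called higher, 4 of 4 tested.

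Cell type markers moved with the same contrast, in which 19.6% of all genes tested were called higher and 17% lower. The summed log2 level of 15 chondrocyte markers was 17.16 to 18.59 on callus arrays and 13.01 to 16.89 on uninjured arrays, and 14 of the 15 were called higher. The sum of 7 measured osteoblast markers was 15.73 to 16.11 in callus and 11.34 to 15.12 in uninjured bone (6 of 7 higher), and that of 6 tendon and fibrous markers 15.37 to 16.24 and 10.52 to 14.04 (6 of 6 higher). Macrophage markers ran the other way, with 12.82 to 15.63 in callus and 15.90 to 16.32 in uninjured bone (11 of 15 lower), as did neutrophil markers, with 13.62 to 17.46 and 17.44 to 18.07 (8 of 10 lower). Of 16 immediate early and heat shock genes, which respond to cell dissociation, 9 were called higher and 0 lower, with a summed level of 16.42 to 17.34 in callus and 16.05 to 17.09 in uninjured bone. Junb stands in that list and among the BMP targets, and Sp7 stands among the osteoblast markers and the BMP targets, so these lists are not separate. Of 5 tested platelet markers 4 were called lower (sum 10.80 to 12.24 in callus and 11.54 to 14.91 in uninjured bone). Of 12 endothelial markers 0 were called, with a sum of 11.92 to 15.77 in callus and 12.37 to 14.26 in uninjured bone. This sum was highest on the mBCSP arrays of form C. These read 15.77 in conflicting callus, 14.72 in sham callus and 14.26 in OVX uninjured bone, against 12.12, 12.30 and 12.37 on the mSSC arrays. Array BI had an erythroid sum of 15.64, while other callus arrays read 9.58 to 14.84. No defining marker was at the floor on all arrays, apart from the osteoclast marker Calcr. The part of these markers in the BMP gene results was not tested.

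Between mSSCs and mBCSPs none of the 10 genes passed the test, and 0% of all 14504 genes did, though 1401 genes had an unadjusted p under 0.05. Bmpr1a came closest, higher in mSSCs in 8 of 8 pairs, with differences from 0.03 to 1.21 (log2 fold change 0.35, SE 0.14, adjusted p = 0.484). Its other 5 probe sets were higher in mSSCs in 3 to 5 of 8 pairs, with median differences from -0.28 to 0.19. The other 9 genes lay between -0.21 and 0.28. The intervals of Chrd (-0.28 to 0.36) and Bmp6 (-0.40 to 0.44) were narrow, and that of Bmper (-1.01 to 1.30) was wide. The pair of unstated callus decided several values: SI exceeded BI by 4.49 in Bmper, 2.96 in Nog and 2.56 in Bmpr1b, and without that pair the estimates were -0.48 for Bmper, -0.23 for Nog and -0.06 for Bmpr1b. A test of the difference between the responses to injury in mSSCs and mBCSPs called none of the 10 genes and 0% of all genes. It was not made within a form, as it used callus pairs of every form and uninjured pairs of forms B and C only. With all arrays Bmp6 had the smallest p, with a response larger by 0.81 in mSSCs (95% interval -0.04 to 1.67, adjusted p = 0.784). Without array BI, which left 1 unstated callus array, the value was 0.64 for Bmp6, 0.85 for Bmp2 and 0.71 for Bmp5. In that fit Bmp4, Bmpr1a, Nog and Chrd lay below 0.

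Ovariectomy in callus changed none of the 10 genes beyond the test, nor any of the other genes (0% called, 293 of 14504 at an unadjusted p under 0.05). Bmp4 and Bmp6 had the largest differences between OVX and sham callus. Bmp4 read 6.59 and 5.95 in OVX callus and 7.36 and 7.12 in sham callus of the same form (-0.97, SE 0.52, adjusted p = 1), and Bmp6 read 9.35 and 9.27 in OVX callus and 9.83 and 10.12 in sham callus (-0.66, SE 0.38, adjusted p = 1). These 2 genes are named because their differences were largest, and the sham callus mSSC array of form C had Bmp4 at 6.29. The other 8 genes lay between -0.28 and 0.28, and their intervals were wide, as for Bmp2 (0.17, interval -0.72 to 1.06) and Nog (0.20, interval -1.44 to 1.84).

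In OVX + E2 callus Bmp4 read 7.20 and 7.59, against 6.59 and 5.95 in OVX callus (1.13, interval -0.02 to 2.27, adjusted p = 1). Grem1 read 7.82 and 8.40 in OVX + E2 callus and 9.09 and 8.64 in OVX callus (-0.75, interval -1.67 to 0.17, adjusted p = 1). Of the 10 genes 0 were called, as against 0.0207% of all genes. The comparison shares the OVX arrays with that of OVX and sham callus, so an opposite sign in the 2 comparisons is no separate observation. OVX + E2 callus set against sham callus called 0 of the 10 genes and 0.0207% of all genes, with Bmp4 at 0.16 and Bmp6 at -0.52.

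**Figure D5:**
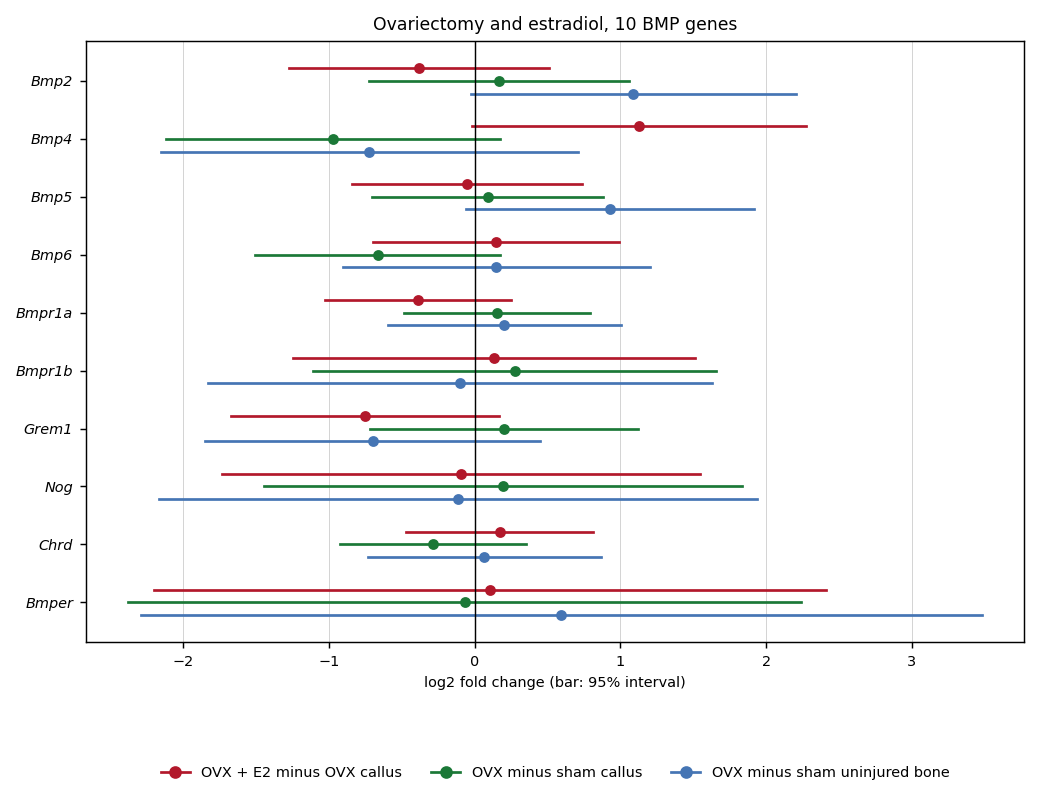
Log2 fold change (horizontal axis) of the 10 BMP genes in OVX + E2 over OVX callus, OVX over sham callus and OVX over sham uninjured bone, with 95% intervals as bars. Every interval in the plot includes 0, and those of Bmper are the widest (OVX minus sham uninjured bone -2.29 to 3.48).

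In uninjured bone OVX and sham arrays could be compared in form C alone, against 1 sham array. Bmp2 read 12.35 and 12.30 in OVX and 11.13 in sham bone (1.09, SE 0.51, adjusted p = 0.659), and Bmp5 read 9.04 and 8.82 in OVX and 8.11 in sham bone (0.93, SE 0.45, adjusted p = 0.68). None of the 10 genes was called, against 0.145% of all genes. Another Bmp5 probe set, 1421283_at, differed more (9.85 and 8.76 in OVX, 7.13 in sham bone; 2.12, adjusted p = 0.288 over all probe sets). Of the other pathway genes Pcsk5, a convertase, read 10.03 and 9.26 in OVX bone and 6.71 on the sham array (2.77, adjusted p = 0.0224 in the fit that lends the lone array the spread of the other groups), which leaves a difference from 1 sample.

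Over the 17 arrays some of the genes followed each other. Bmpr1b and Bmper had a Pearson r of 0.90, Bmp6 and Nog 0.80, Nog and Bmper 0.79, and Bmp2 and Bmp6 0.79, where n = 17 arrays that share title forms and injury groups. With the mean of each form removed, Nog and Bmper had 0.92 and Bmp2 and Bmp5 0.92, against 0.68 for Bmp2 and Bmp5 over all arrays. Of all tested genes the 3 most like Bmp5 in signal over the 17 arrays were Snai2 (r = 0.98), Sbf2 (0.97) and Nckap1 (0.97), those most like Bmp6 were Proser2 (0.97), Fgfr3 (0.96) and Scube1 (0.96), and those most like Bmp2 were Maff (0.96), Crispld1 (0.96) and Klf4 (0.96). Bmper was matched by Zfp275 (0.99), Arhgap35 (0.97) and Tshz3 (0.97), and Nog by Chrdl2 (0.94), itself a chordin relative, Plxnb1 (0.94) and Siah2 (0.94). Grem1 had no match above 0.74 (Cep126).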

How the data were processed

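Sorted mSSC and mBCSP RNA was amplified in 2 rounds and measured on Affymetrix mouse arrays, per the methods of the study. The deposited values are log2 signals, 1 column per array. The authors' processing notes name MAS5 and the methods name GCOS, dChip and Gene Expression Commons, so which tool made the deposited log2 values is not settled, and versions are not given in the sources used here. Control probe sets (64 of 45101) were left out. Signals were quantile normalized, set to no less than their 20th percentile (5.95) and returned to log2. Probe sets carried 1 symbol (34945), several (932) or none (9160), and 34741 symbols were matched by gene id to GRCm38.p6. The probe set of highest mean stood for a gene, and testing was kept to the 14504 genes that reached the 40th percentile of signals (7.20) on 2 or more arrays.

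One fit in limma 3.58.1 (R 4.3.3; lmFit, eBayes with trend) held 9 levels of condition by title form and the population, 10 coefficients with 7 residual degrees of freedom and a median of 4.06 added by moderation. A gene was called where its p, adjusted by Benjamini-Hochberg, was below 0.05. Conflicting and unstated callus were groups of their own. The members and gene lists were chosen with earlier results of these data known. The rule for named genes was every member, the called genes of each pathway list (or up to 2 of smallest p, not all given here) and the 3 genes most correlated with a member, and some further genes were named after their values were seen. The fit was tested on simulated data. Other normalizations, floors, filters, probe sets, moderation and form terms were tried, as were fits without 1 array. The number of arrays limits the precision. The p-values rest on how mSSC and mBCSP arrays of the same condition differ, and they do not measure the spread between mice.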

Additional observations from a re-analysis of the deposited data

Results flagged for a closer look

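In the 4 sham callus arrays 3 probe sets of Bmpr1a had 1 array far from the others, out of 19 probe sets examined, where chance flags about 1 in 20 groups. For 1425493_at the gap to the nearest array was 0.859 of the range, with the mBCSP array of form C at 11.32 and the others at 10.83 to 10.90. For 1451729_at it was 0.844, with the same array at 6.95 and the others at 5.95 to 6.11. For 1445413_at it was 0.886, with the mSSC array of form A at 6.80 and the others at 6.16 to 6.23. The gene's used probe set, 1425492_at, was not among them.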

How the results depend on the processing

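Of 1500 alternative values of the 10 genes over 15 changed settings and 17 fits that left out 1 array, 1408 kept their direction and their side of the threshold, 9 lost a call, 11 gained one and 72 changed sign. Every change of sign concerned a value past the threshold in neither fit. The 5 called genes kept their direction in all 155 of their alternative values. The fit without array BI was singled out after the data were seen. In callus against uninjured bone 3 of the 10 genes were called with no filter on low signals, and 2 of the 10 and 3533 of all genes in form C alone. Bmp5 was 2.60 with no floor, where another of its probe sets had the highest mean, and Bmper 4.81, so their order depends on the setting. In form B alone Bmpr1a was -0.011 and Chrd -0.079, and Grem1 was -0.56 in form C alone and -0.57 without both unstated callus arrays. Leaving out 1 array gave Grem1 -0.082 to 0.52 and Chrd -0.066 to 0.22.

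Between mSSCs and mBCSPs Chrd was -0.028 without quantile normalization and Bmp2 0.023 without the form term. Without both unstated arrays Bmp6 was -0.13, Bmpr1b -0.059, Nog -0.23, Chrd -0.0097 and Bmper -0.48. Leaving out 1 array gave Bmp4 -0.39 to 0.0040, Bmp6 -0.13 to 0.15, Bmpr1b -0.059 to 0.42, Nog -0.23 to 0.37, Chrd -0.031 to 0.11 and Bmper -0.48 to 0.31.

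In OVX against sham callus Bmp5 was -0.015 without quantile normalization, -0.021 with arrays centred on the median, -0.016 with no floor and -0.093 without the form term. Bmp2 was -0.78 without the form term and -0.43 with form as a random block, and Nog -0.69 and -0.45, and -0.33 with conflicting arrays counted as OVX. The count of genes was 1 with no filter and 2 with conflicting arrays as OVX, in place of 0. Leaving out 1 array gave Bmp2 -0.22 to 0.56, Bmp5 -0.26 to 0.44, Bmpr1b -0.0022 to 0.55, Grem1 -0.22 to 0.62, Nog -0.61 to 1.01 and Bmper -0.73 to 0.60.

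In OVX + E2 against OVX callus 3 genes became 0 without the form term, 1 with form as a random block and 8 without both unstated arrays, and 0 to 8 when 1 array was left out. Nog was 0.17 with conflicting arrays as OVX. Leaving out 1 array gave Bmp2 -0.77 to 0.012, Bmp5 -0.37 to 0.26, Bmpr1b -0.32 to 0.59, Nog -0.65 to 0.47, Chrd -0.10 to 0.45 and Bmper -0.56 to 0.77.

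In OVX against sham uninjured bone 21 genes became 7 without quantile normalization, 6 with median centring, 46 with no filter, 485 without the form term (with 1 of the 10 genes, Bmp5 at 2.26), 244 with form as a random block, 74 without both unstated arrays and 6 to 76 when 1 array was left out. Bmpr1b was 0.045 without quantile normalization, 0.011 with median centring, 0.22 with a floor at the 30th percentile, 0.26 without the form term and 0.24 with the random block. Nog was 0.023 without quantile normalization and Bmp6 -0.023 with median centring. Without the form term and with the random block, Bmpr1a was -0.32 and -0.20 and Grem1 0.36 and 0.20. Leaving out 1 array gave Bmp6 -0.0099 to 0.35, Bmpr1b -0.64 to 0.59 and Nog -0.31 to 0.022.

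The causes of these changes were not tested. No paired analysis was possible because the labels number no replicates, and the pairs of mSSC and mBCSP arrays used here are arrays of 1 condition and form, which the fit already blocks. Without the sham uninjured array of form C, the form C difference, the mean over forms and OVX against sham uninjured bone could not be estimated. Signals at the floor have no order, which limits Bmper and Bmpr1b in uninjured bone and the dim gene Bmp4.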
